A study of Homo sapiens with 20 samples.

Results

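HIF2α sites were compared between A498 cells carrying a control hairpin and A498 cells carrying a hairpin against BMAL1. The sites are the 2 lists of called HIF2α peaks, 2361 with the control hairpin (shCNT) and 3199 with the BMAL1 hairpin (shBMAL1), together 5560 of the 12171 peaks in the 4 lists of the series. A shCNT peak was called kept when a shBMAL1 HIF2α peak shared at least 1 bp with it, and lost when none did. A shBMAL1 peak without such a partner in shCNT was called gained. The classes are names for calls in 2 lists and not for measured binding or its absence.

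A498 is an established line of clear cell renal cell carcinoma (ccRCC), and both hairpins were delivered by lentivirus in pLKO.1 with puromycin selection. In CUT&RUN an antibody brings a nuclease to the chromatin protein it recognises, and the short DNA pieces cut free there are sequenced. By their labels the 20 libraries hold 4 for HIF2α in each hairpin, the same for BMAL1, and 2 IgG libraries per hairpin, but 1 peak list stands for each group, so no difference below could be set against replicate spread. The BMAL1 list labelled shBMAL1 held 4261 peaks against 2350 in shCNT. Peak number is no measure of BMAL1 level, so the hairpin labels could not be checked from the lists. The paper describes these A498 cells as depleted of BMAL1, and shBMAL1 is used here as the name of the lists.

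HIF2α is the oxygen-labile subunit of a basic helix-loop-helix PAS factor that pairs with ARNT and reads a short DNA word, the hypoxia response element (HRE). In most ccRCC the VHL ubiquitin ligase is lost, HIF2α is no longer degraded in the presence of oxygen, and its targets in glucose use, vessel growth and lipid storage are switched on. BMAL1 belongs to the same protein family, is related to ARNT, and pairs with CLOCK on E-boxes to run the circadian clock. The study asked whether HIF2α stays on chromatin when BMAL1 is depleted.

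Sequences of strong members of each class are given to show what HIF2α peaks carry. They are read from GRCh37 on the forward strand, as the 200 bp around the summit, with the HRE core ACGTG or GCGTG on either strand (CACGT or CACGC when it lies on the reverse strand) in capitals. The first 3 are lost peaks. The window of AK4, a mitochondrial adenylate kinase, lies in an AK4 intron 542 bp past a start (chr1:65614329-65614528) and holds 2 cores. The window in an intron of SIK3, a salt-inducible kinase (chr11:116881962-116882161), holds 1, and the window in an intron of GSE1, a gene of a chromatin co-repressor protein (chr16:85424473-85424672), holds 0.
AK4 lost: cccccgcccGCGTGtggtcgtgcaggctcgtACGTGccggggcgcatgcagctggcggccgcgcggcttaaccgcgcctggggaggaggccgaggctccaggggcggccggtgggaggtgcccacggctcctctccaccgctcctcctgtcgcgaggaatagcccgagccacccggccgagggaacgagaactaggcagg
SIK3 lost: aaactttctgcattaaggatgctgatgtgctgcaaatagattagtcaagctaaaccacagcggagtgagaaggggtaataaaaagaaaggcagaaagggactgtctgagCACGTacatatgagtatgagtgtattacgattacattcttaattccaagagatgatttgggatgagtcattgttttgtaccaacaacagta
GSE1 lost: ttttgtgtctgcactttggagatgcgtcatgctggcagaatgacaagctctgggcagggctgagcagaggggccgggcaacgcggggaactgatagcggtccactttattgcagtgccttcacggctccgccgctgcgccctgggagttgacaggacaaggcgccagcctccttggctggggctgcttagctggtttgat

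Kept peaks are shown by the promoter of PGK1, a glycolytic kinase gene, of which only 30 bp around 1 of 3 cores are printed (chrX:77359550-77359579), and by 2 intergenic sites. The site of ADM, which encodes the vasoactive peptide adrenomedullin, holds 3 cores (chr11:10329553-10329752), and the site of TGFA, which encodes an EGFR ligand, holds 2 (chr2:70823906-70824105).
PGK1 kept: aaacggaagccgCACGTctcactagtaccc
ADM kept: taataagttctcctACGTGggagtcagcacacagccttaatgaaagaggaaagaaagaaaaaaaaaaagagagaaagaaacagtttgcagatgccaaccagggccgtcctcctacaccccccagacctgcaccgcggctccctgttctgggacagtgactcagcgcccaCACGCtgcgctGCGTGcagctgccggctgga
TGFA kept: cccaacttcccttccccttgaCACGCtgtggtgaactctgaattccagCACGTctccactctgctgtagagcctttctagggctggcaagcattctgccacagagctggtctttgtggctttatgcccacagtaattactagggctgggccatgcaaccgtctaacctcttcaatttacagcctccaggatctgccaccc

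A gained peak is shown by an intergenic site near PDGFB, a platelet-derived growth factor chain (chr22:39648180-39648379, 2 cores). The cores mark letters in a window and were not tested for function.
PDGFB gained: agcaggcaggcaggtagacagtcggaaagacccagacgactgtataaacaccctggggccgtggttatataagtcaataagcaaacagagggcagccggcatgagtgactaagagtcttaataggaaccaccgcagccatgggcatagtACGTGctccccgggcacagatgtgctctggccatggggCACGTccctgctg

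Most strong HIF2α sites were called in both lists, and the weak ones were not. Of all shCNT peaks 44.2% were lost and 1318 were kept, and of all shBMAL1 peaks 58.8% were gained. When the shCNT list was divided into quartiles of its −log10 p, the caller's measure of enrichment, 431 of 591 peaks were lost in the weakest quartile (72.9%, Wilson 95% interval 69.2 to 76.4%). The share was 60.3% in the second quartile (56.3 to 64.2%) and 35.4% in the third (31.7 to 39.4%). In the strongest quartile 47 of 590 were lost (7.97%, 6.04 to 10.4%). The gained share ran the same way over quartiles of the shBMAL1 list, from 86.0% (83.4 to 88.2%) through 76.6% and 55.8% to 16.6% (14.2 to 19.4%). With shBMAL1 peaks divided at the −log10 p limits of the shCNT quartiles it was 86.1%, 67.9%, 42.6% and 9.04% (6.91 to 11.8% in the strongest). Intervals here cover counting error over peaks, which are neither replicates of a condition nor, where they share a gene, separate loci.

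**Figure D1:**
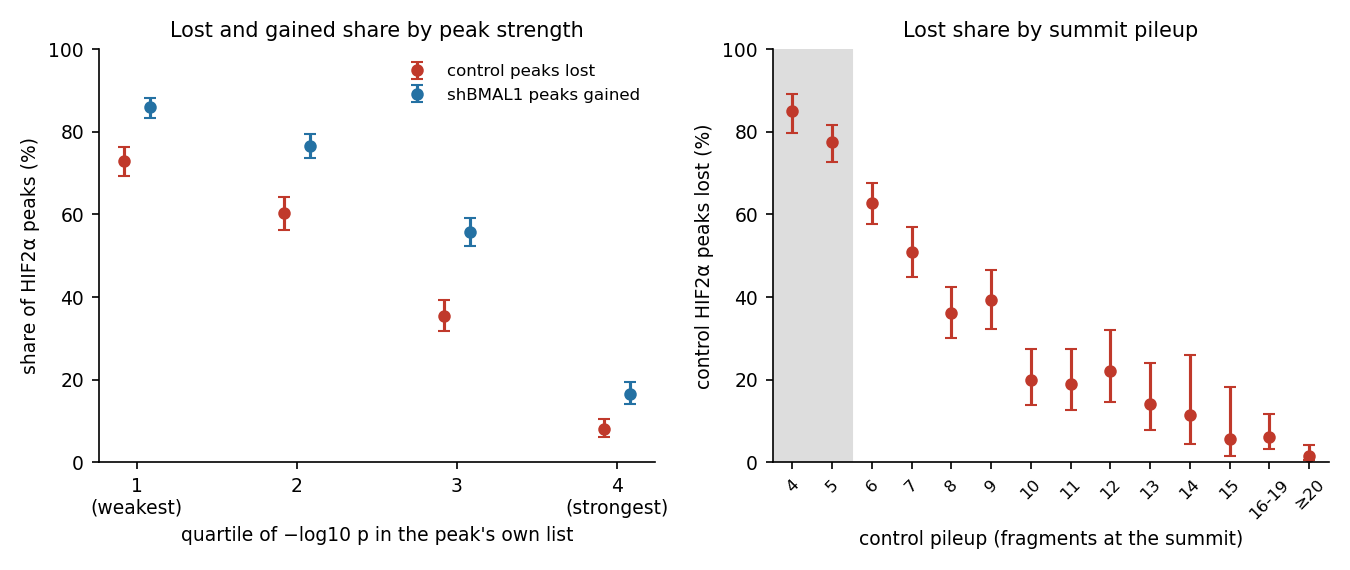
Left, share (%) of shCNT HIF2α peaks lost and of shBMAL1 HIF2α peaks gained in each quartile of −log10 p of the peak's own list; right, share lost by the number of fragments at the shCNT summit. Points are shares and bars Wilson 95% intervals; the grey band marks pileups of 4 and 5, which scale to under 3 fragments at shBMAL1 depth, and the lost share went from 85.0% at 4 fragments to 1.49% at 20 and over.

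The lists differed in depth, and depth bears directly on which weak peaks could be called. The pileup of a peak is its count of fragments at the summit, and it was recovered from the deposited fold and p-value of every peak. Background over the whole genome stood at 0.209 fragments per position for shCNT and 0.109 for shBMAL1, a ratio of 0.524. The smallest pileup that meets the caller's limit at that background is 4 in shCNT and 3 in shBMAL1. Multiplied by 0.524, shCNT pileups of 4 and 5 fall below 3. These 556 peaks held 448 of the lost ones (43.0% of all lost peaks). Among the 1805 shCNT peaks that would still be callable, 595 were lost (33.0%, 30.8 to 35.2%). Of the 201 shCNT peaks with a pileup of at least 20, 3 were lost (1.49%, 0.509 to 4.30%), and these are the AK4 peak and a pair of peaks at EIF4H. The same division says nothing of gained peaks, because every callable shBMAL1 pileup scales to more than 4 fragments at shCNT depth by construction.

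Single sites show the range. The AK4 peak had 28 fragments in shCNT, which corresponds to 14.7 at shBMAL1 depth, and the nearest shBMAL1 HIF2α peak was 337541 bp away. EIF4H, which encodes a translation initiation cofactor, had a peak of 27 fragments 622 bp past its start (chr7:73589107-73589926) and another of 21 fragments 36 bp before it (chr7:73588451-73588674), both with an HRE, and no shBMAL1 peak within 322439 bp. The background at these EIF4H peaks was above the genome level, so that their −log10 p was 36.3 and 20.1 against 50.8 at AK4. The lost GSE1 peak had 19 fragments and a shCNT BMAL1 peak over it, but a shBMAL1 HIF2α peak lay 4478 bp away. The lost peak 161 bp before MAML1, a Notch co-activator (chr5:179158986-179159800), also had 19 fragments, held 3 cores and was overlapped by BMAL1 peaks of both hairpins. The lost SIK3 peak had 17 fragments and no BMAL1 peak. In the lower quartiles the highest lost peaks had far fewer fragments: 10 near FZD5, a Wnt receptor gene, and 12 at the start of TARS1, the threonyl-tRNA synthetase gene, in the third quartile, and 9 at both NSUN4 and HOGA1 in the second. At CCDC24 and SLC6A9 in the weakest quartile they had 5 fragments each.

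Among gained peaks the highest by −log10 p was an intron of TMEM209, a nuclear envelope protein gene, with 20 fragments in shBMAL1 (chr7:129820534-129821153). It was followed by the PDGFB site with 15 fragments, 7292 bp before the start and 67137 bp from the nearest shCNT peak. The start of MTR, the methionine synthase gene, had 14 fragments and a shBMAL1 BMAL1 peak over it. AGAP1, a gene of an ARF GTPase-activating protein, had 14 fragments 99510 bp before its start, and ANXA5, a gene of a phospholipid-binding annexin, had 13. Each of these 5 windows held an HRE core, and a BMAL1 peak of shCNT overlapped none of them. In raw fragments the highest gained peak was lower than the highest lost peak, 20 against 28. Scaled to shCNT depth by the background ratio the order turned, with 38.2 fragments at TMEM209 and 28.6 at PDGFB.

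Kept peaks were, for the most part, higher in shBMAL1 than the background ratio alone gives. The height ratio is the shBMAL1 pileup over the shCNT pileup, divided by 0.524. Where several shBMAL1 peaks overlapped a shCNT peak the highest was used, which raises the ratio by construction. The same shBMAL1 peak could also be paired with more than 1 shCNT peak. Its median over the 1318 kept peaks was 1.53 (1.48 to 1.59). Weak peaks can be kept only if they reach the limit again, which lifts their ratio by construction, and the median was 1.91 in the weakest quartile. In the strongest quartile, where 543 of 590 peaks were kept, it was 1.35 (1.31 to 1.39), and 446 of 543 peaks had a ratio above 1. The median stood at 1.27 among the 198 kept peaks with at least 20 shCNT fragments. The ratio rests on the genome background as the scale. With the kept peaks of the strongest quartile as the scale, the median of that quartile is 1 by construction. The median over all kept peaks was then 1.13, which also holds the lift of weak peaks named above.

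**Figure D2:**
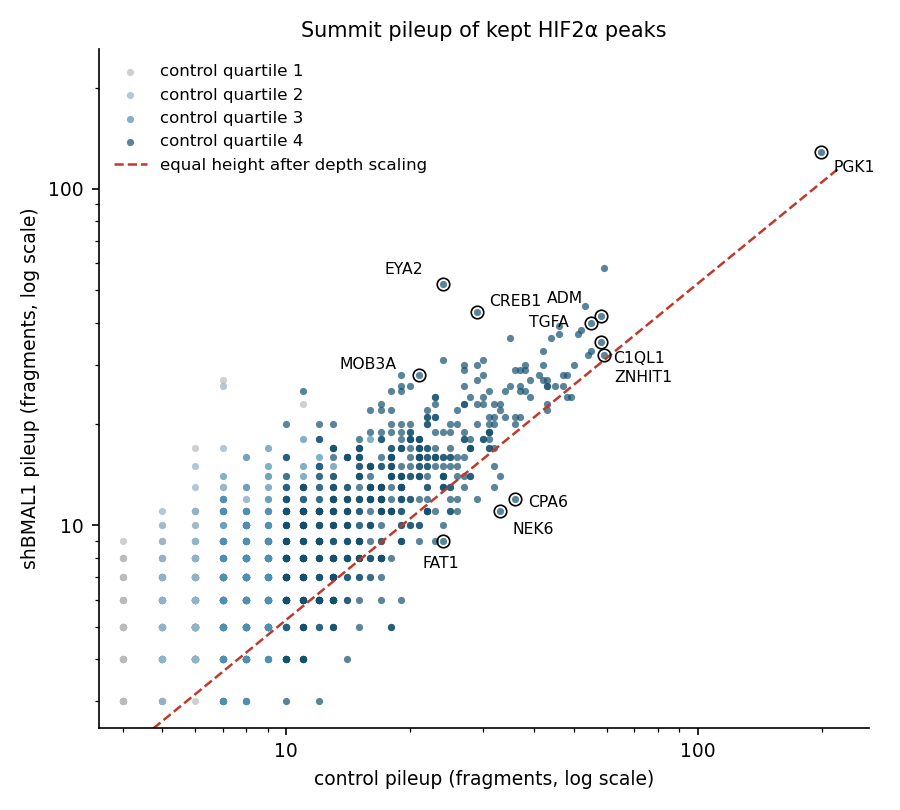
Fragments at the summit of each of the 1318 kept HIF2α peaks in shCNT (x axis, log scale) and shBMAL1 (y axis, log scale), shaded by shCNT quartile, with the named peaks circled. The dashed line is equal height after scaling by the background ratio of 0.524; PGK1 (199 and 129 fragments) lies just above it, and among peaks with at least 20 shCNT fragments EYA2 lies farthest above and CPA6 and NEK6 farthest below.

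The 5 strongest kept sites had ratios from 1.04 to 1.39. The PGK1 promoter had 199 fragments in shCNT and 129 in shBMAL1, a ratio of 1.24. The ADM site went from 58 to 42 (1.38) and the TGFA site from 55 to 40 (1.39). A site in an NMT1 intron whose nearest start is C1QL1 went from 58 to 35 (1.15), and a site in PLOD3, which encodes a collagen lysyl hydroxylase, 106 bp from the ZNHIT1 start went from 59 to 32 (1.04). The largest ratio among kept peaks with at least 20 shCNT fragments was in an intron of EYA2, a transcriptional co-activator and phosphatase gene, with 24 and 52 fragments (4.14) and no HRE core. It was followed by an intergenic site whose nearest start is CREB1 (29 and 43, ratio 2.83) and a MOB3A intron (21 and 28, ratio 2.54). The smallest ratios were at an intergenic site near CPA6 (36 and 12, ratio 0.636), a NEK6 intron (33 and 11, ratio 0.636) and an intergenic site near FAT1, a cadherin gene (24 and 9, ratio 0.716). These 6 were named for their ratio, which is therefore a description of the extremes.

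Distance to genes separated the gained peaks from the rest more than it separated lost from kept. Each summit was assigned to the nearest start of a protein-coding gene. The median distance was 2467 bp for lost, 6069 bp for kept and 15937 bp for gained peaks. A summit lay within 1 kb of a start, here called a promoter, in 43.2% of lost peaks (40.3 to 46.3%), 38.0% of kept (35.4 to 40.7%) and 27.1% of gained peaks (25.1 to 29.1%). More than 100 kb from any start lay 8.72% of lost, 13.2% of kept and 17.5% of gained peaks. Untranslated exons held 11.9% of lost summits against 7.36% of kept and 7.39% of gained ones, whereas introns held 44.2%, 48.1% and 46.0%.

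**Figure D3:**
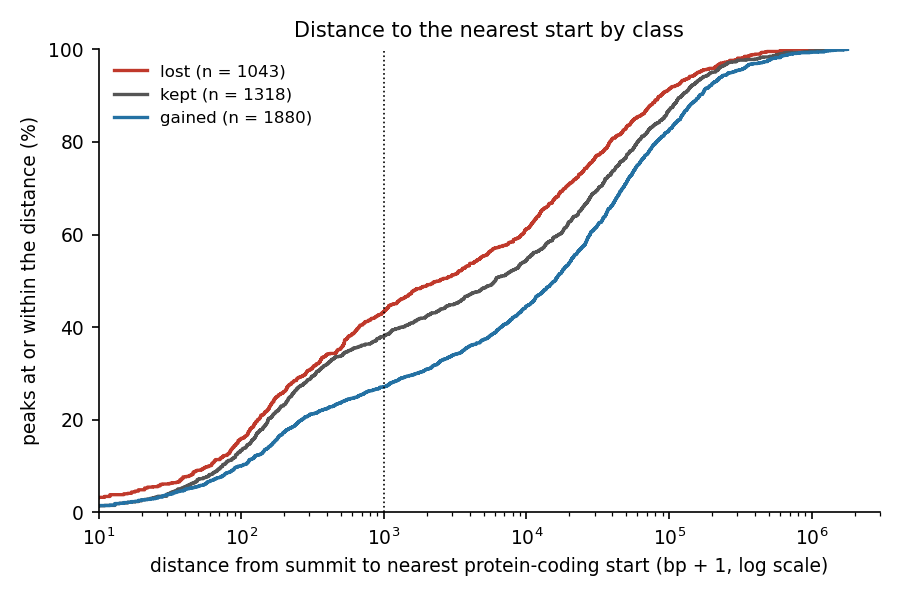
Cumulative share (%) of lost, kept and gained HIF2α peaks by distance from the summit to the nearest protein-coding start (x axis, bp plus 1, log scale), with a dotted line at 1 kb. The gained curve lies below the others beyond about 100 bp, and at 1 kb the curves stand at 43.2% for lost, 38.0% for kept and 27.1% for gained.

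Strength is related to position as well as to class, so classes were compared within quartiles. Quartiles even out strength only in part, since lost and gained peaks had a lower median percentile of −log10 p than kept peaks inside each quartile. It was 82.7 for lost and 88.0 for kept peaks in the strongest shCNT quartile. In the weakest shBMAL1 quartile it was 9.11 for gained and 18.3 for kept peaks. The part of this remainder in the differences within quartiles was not tested. Lost minus kept promoter share was −4.31 percentage points in the weakest shCNT quartile (−13.3 to 4.50), 2.48 in the second (−5.72 to 10.6), 8.40 in the third (0.124 to 16.6) and 10.4 in the strongest (−3.46 to 25). Averaged over quartiles the difference was 3.28 points with an interval that includes 0 (−1.36 to 7.93). With peaks under a −log10 p of 8 left out of both lists it was 9.70 points (3.98 to 15.4). Gained peaks lay at promoters less often than kept peaks in every shBMAL1 quartile, with differences of −20.0, −18.2, −14.6 and −10.3 points from weakest to strongest. The average was −15.6 points (−19.5 to −11.7). Seen from the genes, 10.1% of shCNT promoter peaks of the strongest quartile were lost (21 of 207) against 6.79% of peaks farther out (26 of 383). In the strongest shBMAL1 quartile 11.9% of promoter peaks were gained and 18.7% of the others.

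Of the 10 words counted, the HRE differed most between classes. An HRE core lay within 100 bp of the summit in 75.4% of kept shCNT peaks (73.0 to 77.7%), 54.6% of lost and 48.8% of gained peaks. The same word was found in 25.3% of windows 2 kb to either side of the peaks and in 42.7% of windows at protein-coding starts. In each class the stronger quartiles held more cores. In the weakest shCNT quartile 44.5% of lost and 60.6% of kept windows held a core, a difference of −16.1 points (−24.7 to −7.02). In the second quartile the difference was −13.6 (−21.3 to −5.57). In the third and the strongest quartile it was −3.54 and −4.05, with intervals that include 0, and there 68.9% and 80.9% of lost windows held a core. The average over quartiles was −10.2 points (−14.6 to −5.77), and it was −10.2 again when promoters and other peaks were also kept apart. For gained against kept peaks of the shBMAL1 list the difference was −13.1, −15.5, −9.87 and −14.2 points from weakest to strongest, and −12.8 on average (−16.8 to −8.82), or −10.6 with promoters and other peaks kept apart.

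**Figure D4:**
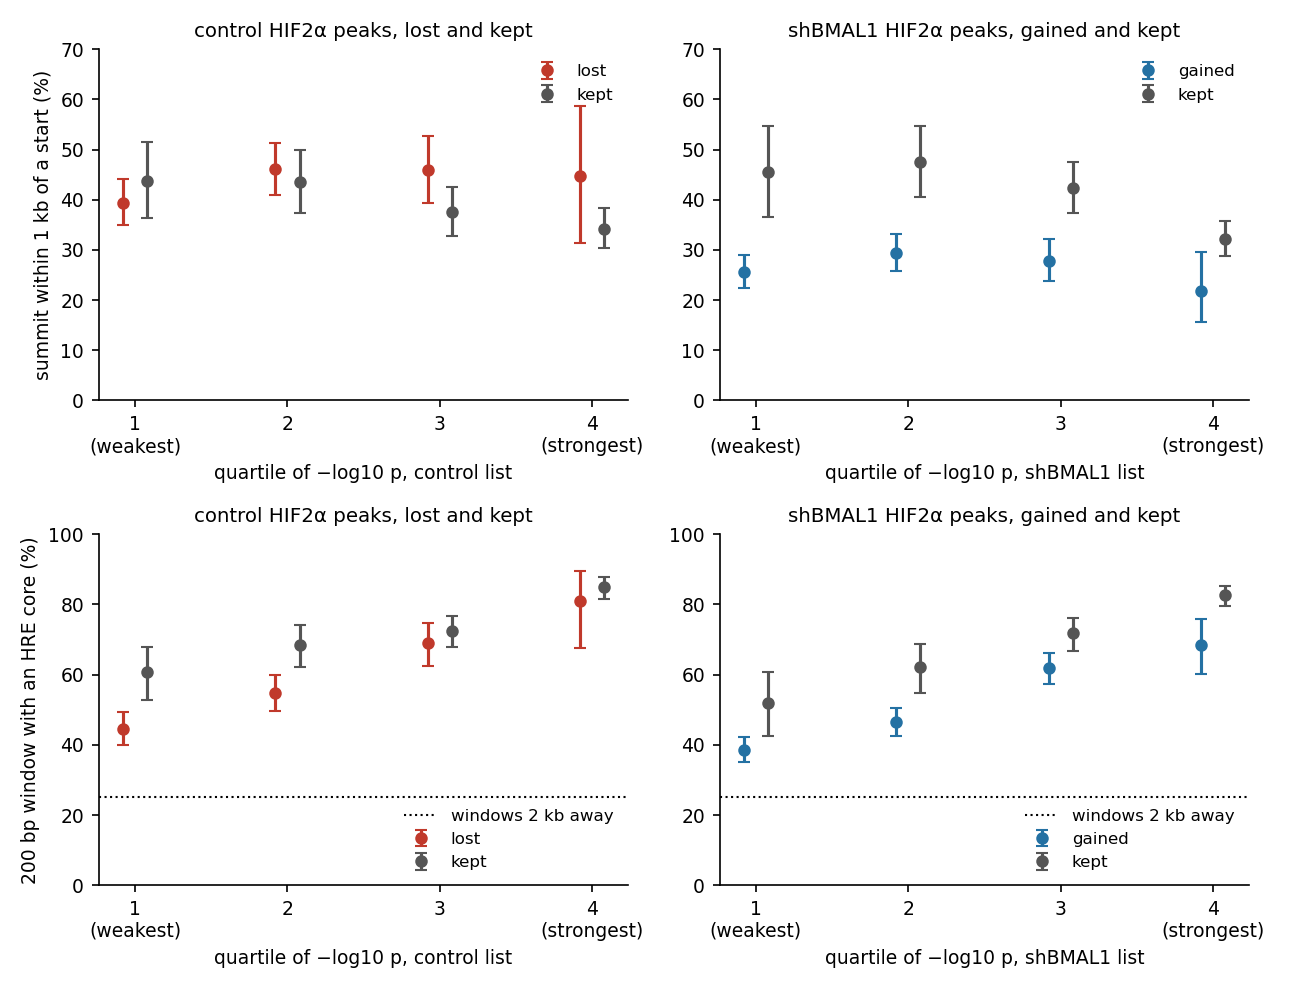
Share (%) of HIF2α peaks with a summit within 1 kb of a start (top) and with an HRE core in the 200 bp window (bottom), by quartile of −log10 p of the shCNT list (left, lost and kept) and of the shBMAL1 list (right, gained and kept). Points are shares, bars Wilson 95% intervals and the dotted line the 25.3% of windows 2 kb away; gained peaks lie below kept peaks in every quartile of both measures.

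Other words were less tied to class. The AP-1 site (TGAGTCA or TGACTCA, the word read by FOS and JUN dimers) was in 16.2% of kept shCNT, 10.5% of lost and 16.2% of gained windows against 3.35% of flanks. Within quartiles the lost minus kept difference was −3.91 points (−7.05 to −0.774), and gained minus kept was 5.57 points (2.59 to 8.55). The gained difference came from the third shBMAL1 quartile (14.2 points, 9.05 to 19.1), since in the other 3 the intervals included 0, and with promoters and other peaks also kept apart the average was 3.27 (0.307 to 6.23). For the TEAD word GGAATG lost minus kept was −5.87 points (−9.27 to −2.48). For the Sp1 word GGGCGG gained minus kept was −6.81 points (−10.4 to −3.21), but −0.51 (−3.80 to 2.77) when promoters and other peaks were also kept apart. Lost minus kept was 3.28 (−0.897 to 7.46). The E-box CACGTG, which contains an HRE core, was in 6.62% of lost and 6.22% of kept peaks, and the interval of the difference within quartiles ran from −2.37 to 2.37 points. For CCAAT, RUNX (AACCACA), CRE (TGACGTCA) and ETS (CCGGAAG) words the intervals included 0 in both comparisons. NRF1 (GCATGCGC) was in 2.40% of lost and 1.37% of kept windows, 1.56 points apart within quartiles (0.274 to 2.84). All words were counted on both strands, 10 words in 2 comparisons, with no correction of the intervals.

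BMAL1 peaks lay on lost HIF2α sites less often than on kept ones. A shCNT BMAL1 peak overlapped 21.4% of lost and 27.8% of kept sites, a difference of −4.76 points within quartiles (−8.82 to −0.697). Most of it came from the weakest quartile (−10.5, −18.6 to −3.02), and in the other 3 the intervals included 0. A shBMAL1 BMAL1 peak overlapped 18.4% of lost and 30.6% of kept sites (−12.3, −16.3 to −8.25). Gained sites had a shCNT BMAL1 peak in 11.7% and kept shBMAL1 sites in 27.9% (−15.9, −19.3 to −12.5), while with the BMAL1 list of their own hairpin the shares were 26.1% and 31.8% (−1.60, −5.44 to 2.25). For both lost and gained sites the difference was smaller with the BMAL1 list of the same hairpin than with that of the other, and this contrast was not tested. Local background, the caller's estimate for the surroundings of a peak, had a median of 0.213 at lost and 0.277 at kept shCNT sites. The library it was estimated from is not given, and its part in these differences was not tested.

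Most genes with a lost peak had no other HIF2α peak in shBMAL1. The 2361 shCNT peaks were assigned to 1845 genes, of which 1096 had a kept peak and so a shBMAL1 peak by definition. Over all these 1845 genes 1184 (64.2%) had a shBMAL1 peak. The 1043 lost peaks belonged to 946 genes. Of these, 305 had another shBMAL1 HIF2α peak (32.2%, 29.3 to 35.3%) and 641 had none. In 197 the other peak was a kept one and in 198 a gained one, with some genes in both counts. Of 1532 genes with a gained peak, 1111 (72.5%) had no shCNT peak, while over all 2316 genes with a shBMAL1 peak 1184 had a shCNT peak. Genes with a kept peak have one in both lists by definition. The part of the number of peaks per gene in these shares was not tested. Few lost sites had a close neighbour in shBMAL1, with 83 of the 1043 lost peaks within 1 kb of a shBMAL1 peak (7.96%) and 550 within 100 kb.

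Genes with many sites show how these classes mix. FNDC3B had 1 lost, 4 kept and 5 gained peaks, and ZNF395, a hypoxia-induced zinc finger gene, had 2, 5 and 3. NDRG1, a hypoxia-induced stress gene, had 1 lost, 6 kept and 1 gained peak, and its lost peak had 5 fragments against 9 to 53 at the kept ones. PLIN2, which encodes a lipid droplet coat protein, had 4 lost, 2 kept and 0 gained peaks. CD70, a TNF family ligand gene with high expression in ccRCC, and RAI14 each had 4 lost peaks and 1 kept, with 1 gained at CD70 and 2 at RAI14. ITGB1, an integrin gene, had 1 lost, 0 kept and 5 gained peaks. LIF, a cytokine gene, had 0 lost, 5 kept and 3 gained.

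Known HIF target groups kept a larger share of their peaks than other genes, and their peaks were also stronger. Pooled over 5 lists (glucose use, secreted factors, matrix enzymes, oxygen sensing and hypoxic stress), 56 genes had 121 shCNT peaks, of which 33 were lost (27.3%, 20.1 to 35.8%), against 45.1% of the peaks of other genes. Their median percentile of −log10 p was 76.2, and all shCNT peaks with the same mix of quartiles were lost at 31.5%, inside that interval. Of 144 shBMAL1 peaks at such genes 56 were gained (38.9%, 31.3 to 47.0%), where the same mix of quartiles gave 45.3%. The median height ratio of their kept peaks was 1.45, and that of other genes 1.53.

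**Figure D5:**
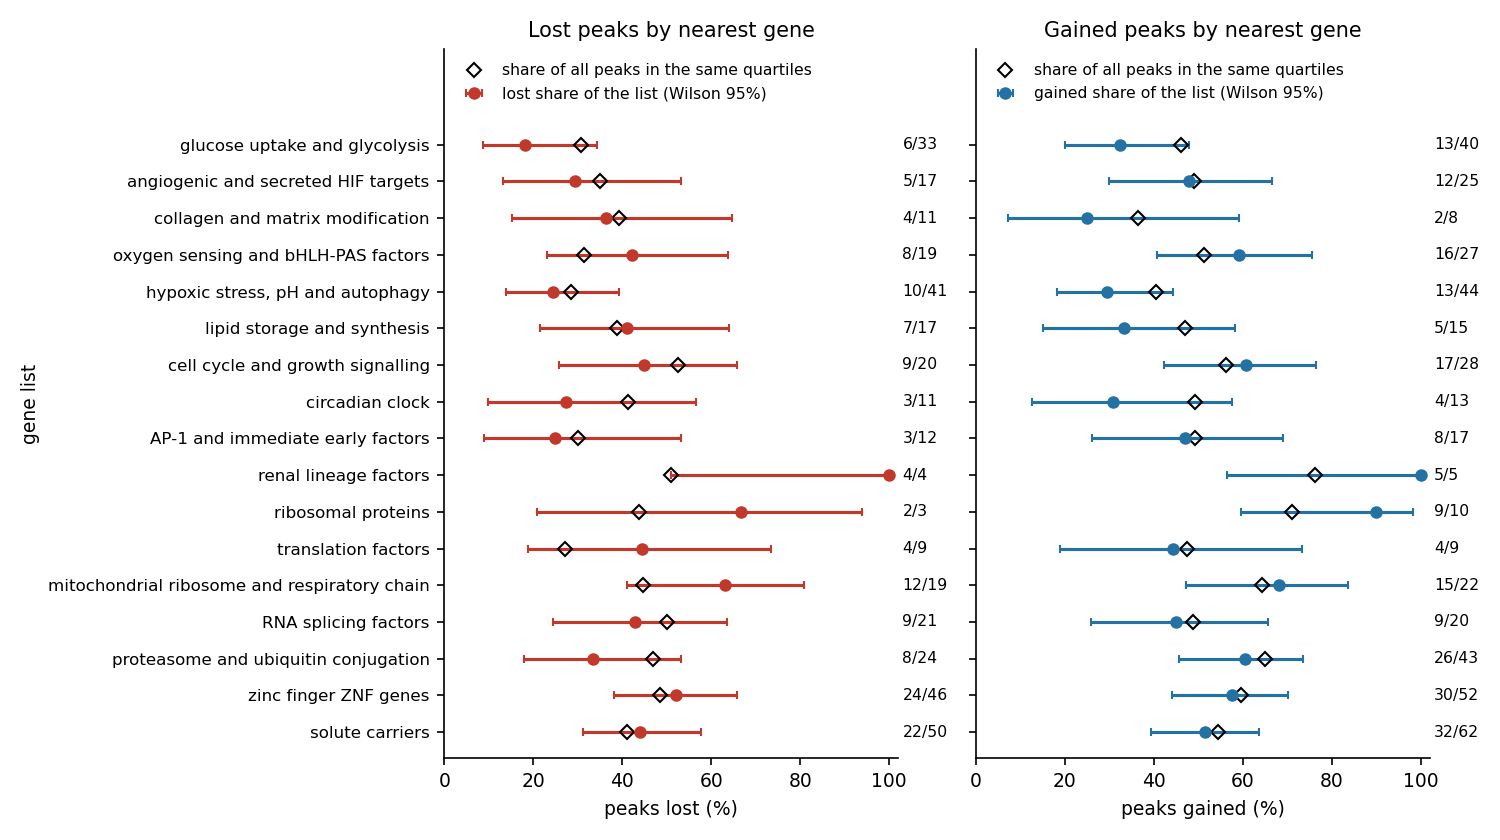
Share (%) of peaks lost among shCNT (left) and gained among shBMAL1 (right) HIF2α peaks whose nearest gene is in each of 17 lists, with Wilson 95% bars and counts at the right margin. Diamonds give the share over all peaks with the same mix of quartiles; for example, glucose uptake and glycolysis lost 6 of 33 peaks where that mix gives 30.8%, and renal lineage factors lost 4 of 4.

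In the glucose uptake and glycolysis list, 20 genes had a shCNT peak and 19 of them also had a shBMAL1 peak. 6 of their 33 peaks were lost (18.2%, 8.61 to 34.4%), against 30.8% for the same quartiles. The LDHA promoter, of the lactate dehydrogenase gene, had 52 fragments in shCNT and 38 in shBMAL1 (ratio 1.39). A site 5358 bp before GPI, the phosphoglucose isomerase gene, had 43 and 26 (1.15), and the promoter of ALDOA, an aldolase gene, had 39 and 27 (1.32). The 6 lost peaks were weak, with 4 to 6 fragments at ALDOA, ALDOC, PFKFB3, PFKL, PFKP and PGAM1, and only ALDOC, with 6 fragments at 11 bp from its start, was left with no shBMAL1 peak. At PFKFB3, a regulator of glycolytic flux, the peak 76795 bp past the start was lost, 1 of 11 fragments farther on was kept with 9, and 3 were gained, the highest with 8 fragments 2064 bp past the start.

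The angiogenic and secreted list lost 5 of 17 peaks (29.4%, 13.3 to 53.1%, same quartiles 35.0%), and each of its 8 genes with a shCNT peak also had a shBMAL1 peak. The VEGFA promoter site, upstream of the main vessel growth factor gene, had 21 fragments in shCNT and 18 in shBMAL1 (ratio 1.64). A site 57153 bp before IGFBP3, which encodes an IGF-binding protein, had 46 and 37 (1.54). At ADM a peak of 10 fragments 246 bp before the start was lost, a gained peak of 4 fragments lay 489 bp from it, and the strong downstream site was kept. PDGFB and TEK, the angiopoietin receptor gene, had a peak in shBMAL1 only, with 15 and 7 fragments. In the matrix list 4 of 11 peaks were lost (same quartiles 39.3%). Of these, 3 lay around the start of PLOD2, a collagen lysyl hydroxylase gene, with 4, 7 and 8 fragments. The main PLOD2 peak, 90 bp from a start, was kept with 26 and 15 fragments (1.10).

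The oxygen sensing list holds the factors themselves, their hydroxylases and hypoxia-induced histone demethylases, and lost 8 of 19 peaks (42.1%, 23.1 to 63.7%, same quartiles 31.5%). The demethylase genes KDM4B (51 and 37 fragments, ratio 1.38) and KDM3A (55 and 33, ratio 1.15) kept strong promoter peaks. KDM4B lost an intronic peak of 14 fragments 7493 bp past the start, which a shCNT BMAL1 peak overlapped. EPAS1, the gene of HIF2α, lost a promoter peak of 5 fragments and kept an intronic peak with 11 and 5 fragments (0.868). HIF1A had 1 peak, of 4 fragments, which was lost. EGLN1 and EGLN3, which encode the oxygen-sensing prolyl hydroxylases, kept their strongest peaks, with 13 and 6 fragments at EGLN1 (0.881) and 23 and 19 at EGLN3 (1.58). EGLN3 gained 4 peaks, the highest with 10 fragments 130851 bp before the start. Of the 27 shBMAL1 peaks of this list 16 were gained (59.3%, same quartiles 51.2%), with CITED2, an inhibitor of HIF co-activation, next at 9 fragments.

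The hypoxic stress list lost 10 of 41 peaks (24.4%, 13.8 to 39.3%, same quartiles 28.5%), and 14 of its 15 genes with a shCNT peak also had a shBMAL1 peak. The exception was AK4. ANKRD37, a small HIF target gene, had 49 and 24 fragments (ratio 0.935), the strongest NDRG1 site 53 and 45 (1.62) and the promoter of DDIT4, an mTORC1 inhibitor gene, 42 and 27 (1.23). A peak of 15 fragments with an HRE was lost 59373 bp from the start of BNIP3L, a mitophagy receptor gene that is here only the nearest start. A neighbouring peak assigned to BNIP3L was kept with 17 and 13. In shBMAL1, 13 of 44 peaks were gained (29.5%, same quartiles 40.4%), and BHLHE41, a clock repressor gene, had a peak in that list only, with 5 fragments.

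Lipid storage and synthesis genes lost 7 of 17 peaks (41.2%, same quartiles 38.8%). The strongest PLIN2 site, 35649 bp before the start, was kept with 37 and 26 fragments (1.34), whereas a peak of 12 fragments 46897 bp before the start was lost. VLDLR, a lipoprotein receptor gene, had 1 peak, of 5 fragments, and lost it. SREBF1 and SREBF2, which encode regulators of lipid and sterol synthesis, had peaks in shBMAL1 only, with 4 to 6 fragments. In the list of cell cycle and growth signalling 9 of 20 peaks were lost (45%, same quartiles 52.5%). EGFR kept an intronic site with 39 and 24 fragments (1.17) and a site 219902 bp before IRS2, an insulin receptor substrate gene, had 29 and 12 (0.790). CDKN1A, TGFBR1 and TGFBR2 had weak peaks of 5 or 6 fragments in shCNT only. A pileup of 5 falls under the limit at shBMAL1 depth. The CDKN1A peak lies between neighbouring shBMAL1 peaks whose numbers skip, which does not place a removed peak at CDKN1A. AXL, MET and CDK6 had peaks in shBMAL1 only, and AXL, a receptor kinase gene, had the highest, with 9 fragments 180 bp before the start.

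Circadian clock genes lost 3 of 11 HIF2α peaks (27.3%, same quartiles 41.3%), and all 5 with a shCNT peak also had one in shBMAL1. The peak 531 bp before BHLHE40, a repressor of the clock, had 19 and 14 fragments (1.41), and the PER1 promoter had 9 and 12 (2.54). PER2, CLOCK and BHLHE41 had peaks in shBMAL1 only, with 6, 3 and 5 fragments. Immediate early factors lost 3 of 12 (25%, same quartiles 30.0%). FOSL2, a FOS family gene, kept an intronic peak with 33 and 22 fragments (1.27) and another at its start with 17 and 6 (0.674). Renal lineage factors had no kept peak. GATA3, PAX2 and SIX2 lost 4 of 4, with 4 to 8 fragments, and EMX2, LHX1, OSR1 and POU3F3 gained 5 of 5, with 3 to 6, where the same quartiles gave 51.03% lost and 76.2% gained. With so few peaks, the intervals reach down to 51.01% and 56.6%.

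Whole gene families were also taken by a pattern in the symbol. They are no contrast free of HIF targets, since ZNF genes include ZNF395 and solute carriers include the glucose transporter gene SLC2A1. The nuclear genes of the mitochondrial ribosome and respiratory chain lost 12 of 19 peaks (63.2%, 41.0 to 80.9%, same quartiles 44.6%). Their highest lost peak lay 168 bp before MRPL28, a mitochondrial ribosomal protein gene, with 13 fragments. Translation factors lost 4 of 9 (same quartiles 27.1%), of which 2 are the EIF4H peaks. EIF4A3, an RNA helicase gene, kept 43 and 22 fragments (0.977). Ribosomal protein genes lost 2 of 3 (same quartiles 43.7%). They gained 9 of 10, 5 of them near RPL26L1 (interval 59.6 to 98.2%, same quartiles 71.1%). Splicing factors lost 9 of 21 (same quartiles 50.1%) and proteasome and ubiquitin conjugation genes 8 of 24 (47.0%). ZNF genes lost 24 of 46 (same quartiles 48.6%) and solute carriers 22 of 50 (41.0%). The share for the same quartiles lay inside the interval of the lost share for each of the 17 lists, at its very edge for renal lineage factors. For the gained share it also lay inside the interval in each list.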

How the data were processed

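CUT&RUN libraries were grouped by hairpin and antibody as labelled. The authors aligned reads to hg19 (GRCh37) with Bowtie2 2.5.3 and removed duplicate reads. They called peaks with MACS2 2.2.9.1 (p-value limit 1e-05, maximum gap 400 bp). Whether replicates were pooled before calling is not given in the sources used here. The deposited values are a fold ratio, a p-value and a q-value as −log10, a score (scaled from these values, not used) and the summit position. The 2 BMAL1 lists served only for overlap. Pileups were solved from fold and p-value, whole for 100% of peaks within 0.001 in −log10 p. The authors filtered called peaks against the hg19 blacklist. Peak numbers run with gaps (33 absent in shCNT, 35 in shBMAL1). Somewhere between neighbouring peaks of the other list whose numbers skip lie 11 lost and 25 gained peaks. The place of an absent peak is not known.

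Starts were those of basic protein-coding transcripts in GENCODE 44 mapped to GRCh37. Quartiles used −log10 p of the peak's own list. Shares carry Wilson, differences Newcombe and averages over quartiles Mantel-Haenszel 95% intervals. With 1 list per group no p-value was computed. Flanking windows lay 2 kb to either side. Steps were tested on simulated data. Software was Python 3.11.15 with numpy 2.4.6, scipy 1.17.1, pandas 2.3.3, pysam 0.24.0 and matplotlib 3.10.9.

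The members, the 17 gene lists, the tests and the alternatives were chosen with earlier results of these data known. The patterns for ribosomal protein and translation factor genes were narrowed after their matches were seen, to leave out kinases and methyltransferases with like symbols. Named were the top 5 peaks by −log10 p in every class, the next 2 lost peaks in each lower quartile, the 3 largest and 3 smallest height ratios among kept peaks with at least 20 shCNT fragments, and list genes by highest −log10 p within list and class. Named in addition, after their values were seen, were genes with many peaks, genes present in 1 list only, and ALDOA, VEGFA, EPAS1, EGLN1, PER1 and the second EIF4H peak. Alternatives were other overlap rules, thresholds, list lengths, chromosomes, promoter and motif windows, gene types and scales; a pileup of at least 5 in both lists was chosen after seeing the data. Some members of these lists, 1 further list and 1 sequence are not reported here.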

Additional observations from a re-analysis of the deposited data

How the results depend on the processing

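No paired analysis was possible because 1 peak list stands for each group, with no values per replicate, and single replicates could not be left out for the same reason. Of the values recomputed under the alternatives, 52 lay inside the interval given for the main value and 26 lay outside it. Among the differences between classes 0 changed sign. For the shares and the height ratio a change of direction was not counted. The cause of a shift was not tested beyond what a setting does by construction.

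With a −log10 p of at least 8 in both lists the lost share was 39.1%, the gained share 48.4%, lost minus kept promoter share 9.70 points, gained minus kept −10.4 points, the lost share of callable peaks 18.1% and the share of genes with another peak 25%. For an overlap of 50% of the shorter peak the 2 shares, the callable share and the gene share were 47.7%, 61.3%, 36.5% and 36.6%, for summits within 200 bp 51.1%, 63.9%, 40.8% and 39.9%, and for a shBMAL1 list shortened to the shCNT length 48.8%, 48.9%, 37.7% and 27.1%. In windows of 100 bp the HRE differences were −5.21 points for lost and −8.21 for gained peaks. Kept heights scaled on the strongest quartile had a median ratio of 1.13. With each peak's own background the callable lost share was 27.2%, and with starts of all gene types the gene share was 22.2%. A pileup of at least 5 in both lists, which removes the weakest shBMAL1 peaks by construction, gave a gained share of 43.96%, a callable lost share of 38.2% and a gene share of 27.0%.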

Other observations

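Lost and gained shares were also counted by chromosome, where all peaks together gave 44.2% lost and 58.8% gained. The chromosomes below were picked for their shares. Several hold few peaks, and neither intervals nor the mix of quartiles were computed, so differences between chromosomes were not tested. Chromosomes 4 and 22 had the lowest lost shares, 33.8% of 80 and 33.9% of 56 shCNT peaks. The X chromosome had the highest lost share, 56.1% of 41 peaks, and the highest gained share, 70.5% of 61 shBMAL1 peaks. Chromosome 17 combined many peaks with a high lost share, 53.3% of 184. The X chromosome was left out in 1 of the alternatives (autosomes alone), which moved none of the values outside its interval.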
